A study of Homo sapiens with 60 samples.

Results

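The 10 genes described here, EGR1, IER2, DUSP1, DUSP4, DUSP5, DUSP6, SPRY2, SPRY4, ETV4 and ETV5, are known transcriptional targets of the RAS-ERK pathway. They were chosen by symbol with earlier results of these data known, mapped to their Ensembl identifiers, and followed over 20 treatment groups. All 10 were among the 60675 genes of the table and among the 17569 genes tested, so none was lost to the filter on low counts. Their clearest pattern was a rise at the high dose of the Scutellaria extract and a split under high-dose Coptis. Under Scutellaria all 10 were higher than in the vehicle, where 30.3% of all genes tested were higher at an adjusted p under 0.05. Under Coptis 37.2% of all genes were higher and 37.9% lower by the same limit. There DUSP1, DUSP5 and SPRY2 rose as EGR1 fell to its lowest level of any group.

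Growth factor receptors activate RAS, which acts through the kinases RAF, MEK and ERK, and ERK then switches on a first wave of genes that need no new protein. EGR1 and IER2 belong to that wave. The dual specificity phosphatases DUSP1, DUSP4, DUSP5 and DUSP6 remove phosphate from mitogen-activated protein kinases, and the Sprouty proteins SPRY2 and SPRY4 act at or above RAF, so that both families feed back on the pathway that induces them. ETV4 and ETV5 are ETS transcription factors of the PEA3 group, which are induced by FGF and other receptors. In gliomas the pathway is often active, and messenger levels of DUSP6, SPRY4, ETV4 and ETV5 are commonly read as its output.

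SW1783 is an established human astrocytoma cell line. It was grown in L-15 medium with 10% fetal bovine serum, and RNA was taken 24 h after treatment, with 3 libraries in each of 20 groups and 60 in all. The vehicle was DMSO, given as 0.1% in the sample labels and as 2% in the design text, and wortmannin, an inhibitor of phosphoinositide 3-kinase, was used at 10 µM. The labels give no DMSO content for wortmannin or the extracts. A difference in solvent from the vehicle therefore cannot be told apart from an effect of treatment. Hot water extracts of fresh ginger, dried ginger, Pinellia and jujube were used at 500, 100 and 20 µg/mL, of Scutellaria at 410, 82 and 16.4 µg/mL and of Coptis at 20, 4 and 0.8 µg/mL, called high, medium and low below. All titles name the same batch. The code in the sample descriptions begins with A1 for the vehicle, 1 for wortmannin, 2 for the gingers, 3 for Pinellia and Scutellaria and 4 for Coptis and jujube, and no source used here says what this first element marks. A difference between an extract and the vehicle therefore cannot be told apart from a difference in that element, and for wortmannin the elements differ by the letter alone, whereas the doses of 1 extract share it. The sources do not say if replicates came from separate cultures, and p-values then measure only the spread between libraries, which may be technical.

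Library totals ran from 20.2 to 32.8 M counts. TMM factors, which correct totals for a few strongly changed genes, averaged 0.81 in high-dose Coptis and 0.92 in medium-dose Coptis and lay within 1.00 and 1.03 as group means elsewhere. Mitochondrially encoded genes took 5.16% of counts in the vehicle, 6.34% in high-dose Coptis and 11.1% in medium-dose Coptis, and the part of these differences in the results was not tested. Of 8 astroglial and glioma markers, VIM (4292 CPM in the vehicle), CD44 (2817 CPM), SOX9 (71.5 CPM) and NES (10.1 CPM) were present. GFAP, S100B, ALDH1L1 and AQP4 were at most 0.346 CPM in any library, so the defining markers of mature astrocytes were at or near 0. Of 8 markers of other cell types EPCAM and CDH5 were near 0, PECAM1 and RBFOX3 under 1.35 CPM, and CD68 (138 CPM), KRT8 (19.2 CPM), PTPRC (13.5 CPM) and MBP (6.53 CPM) were present in the vehicle.

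Promoters of EGR1 and DUSP1 are shown because these early genes moved in opposite directions under high-dose Coptis. RefSeq windows of GRCh38.p14 were available for 6 of the 10 genes, EGR1, IER2, DUSP1, DUSP6, SPRY2 (with 3 windows) and SPRY4, and the 250 bases before each start were searched on both strands. The motifs were the CArG box, at which serum response factor binds, the cAMP response element (CRE) TGACGTCA, the ETS core CCGGAA and the AP-1 site TGAGTCA. The EGR1 window held 2 CArG boxes, which begin 105 and 83 bases before the start and are in capitals below, and 1.16% of 35116 windows of the same length held at least 1. The DUSP1 window held 1 CRE, which begins 125 bases before the start and is in capitals below, where 1.65% of windows held it. IER2 had 1 ETS core at 26 bases and SPRY2 had 1 in a single window at 142 bases, where 14.5% of windows held it. No other match was found in the windows of these 6 genes, AP-1 sites included (4.2% of windows), and no matches overlapped. A match describes letters and is not a measured binding site.
EGR1, chr5:138465229-138465478, plus strand: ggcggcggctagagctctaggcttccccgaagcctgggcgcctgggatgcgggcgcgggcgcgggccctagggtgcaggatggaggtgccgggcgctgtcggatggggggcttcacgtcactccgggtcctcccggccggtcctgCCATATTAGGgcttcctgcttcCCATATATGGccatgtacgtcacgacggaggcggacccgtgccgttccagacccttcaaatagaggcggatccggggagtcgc
DUSP1, chr5:172771196-172771445, minus strand: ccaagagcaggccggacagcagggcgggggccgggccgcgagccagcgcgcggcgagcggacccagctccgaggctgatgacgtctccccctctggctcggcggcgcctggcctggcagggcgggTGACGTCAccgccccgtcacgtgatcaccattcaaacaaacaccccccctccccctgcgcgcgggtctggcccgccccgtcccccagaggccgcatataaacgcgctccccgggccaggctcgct

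Every gene was compared with the vehicle by edgeR's quasi-likelihood test, and a gene is called higher or lower at an adjusted p under 0.05 over all 17569 genes. Under high-dose Scutellaria all 10 genes were called higher, where 58.8% of all genes were called and 30.3% were called higher. Their median log2 fold change was 1.42 and that of all genes tested was 0.01. Under high-dose Coptis 8 were higher and 2, EGR1 and IER2, were lower, where 75.2% of all genes were called, 37.2% higher and 37.9% lower. A count of 10 called genes is thus near the background, whereas 8 of 10 higher is above it. The median there was 0.55 against -0.03 for all genes. The 10 genes were chosen with earlier results of these data known, so these shares describe them and do not test the pathway. With libraries scaled by their totals, DUSP4 under high-dose Coptis was at 0.04 and was not called. Wortmannin gave 8 higher and 0 lower, where 36.5% of all genes were called and 17.3% higher, with a median of 0.35 against 0.02.

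The other extracts moved fewer of the 10 genes. At the high dose 4 were higher under fresh ginger (19.3% of all genes called, 9.12% higher), 4 under dried ginger (17%, 7.76% higher) and 5 under jujube (17.3%, 8.18% higher), with none lower. High-dose Pinellia had 5 higher and 2, DUSP4 and ETV5, lower (18%, 9.3% higher and 8.73% lower). At the medium dose Coptis had 7 higher (41.2%, 21% higher) and Scutellaria 2 higher and 1 lower (8.45%, 3.72% higher and 4.72% lower), and none was called under fresh ginger (1.5%), dried ginger (0.7%), Pinellia (1.41%) or jujube (0.364%). No low dose gave a call, with backgrounds of 7.94% for fresh ginger, 0.0512% for dried ginger, 0.142% for Pinellia, 2.72% for Scutellaria, 0.683% for Coptis and 0.0114% for jujube. At an unadjusted p under 0.05 edgeR gave 0, 1, 2 and 3 of the 10 genes in these medium doses of fresh ginger, dried ginger, Pinellia and jujube. By that limit it gave 2208, 1670, 2123 and 1943 of all 17569 genes in the same order. In the low doses it gave 3 of the 10 genes for fresh ginger, 1 for dried ginger and 4 for Pinellia. It gave 3 for Scutellaria, 4 for Coptis and 0 for jujube there. Over all 17569 genes the low doses gave 3860, 1716, 1531, 2348, 1851 and 1465 in that order of extracts. DESeq2 called 0 of the 10 genes in each of these 10 comparisons. Over the 6 extracts, 40 of 60 results were called at the high dose, 36 of them higher, against 10 of 60 at the medium and 0 of 60 at the low dose. The share of all genes called was also highest at the high dose in every extract, so this order is not particular to the 10 genes. Of the 10 results called at the medium dose, 7 were from Coptis, where 41.2% of all genes were called. Some of the counts for the 10 genes rested on single libraries. The 7 of high-dose Pinellia became 4 without vehicle replicate 2, and the 3 of medium-dose Scutellaria became 1 without vehicle replicate 2 or its own replicate 2. The 5 of high-dose jujube became 3 without vehicle replicate 1 or 2 or jujube replicate 1 or 2. In low-dose fresh ginger the 0 became 1, IER2, without its replicate 2.

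**Figure D1:**
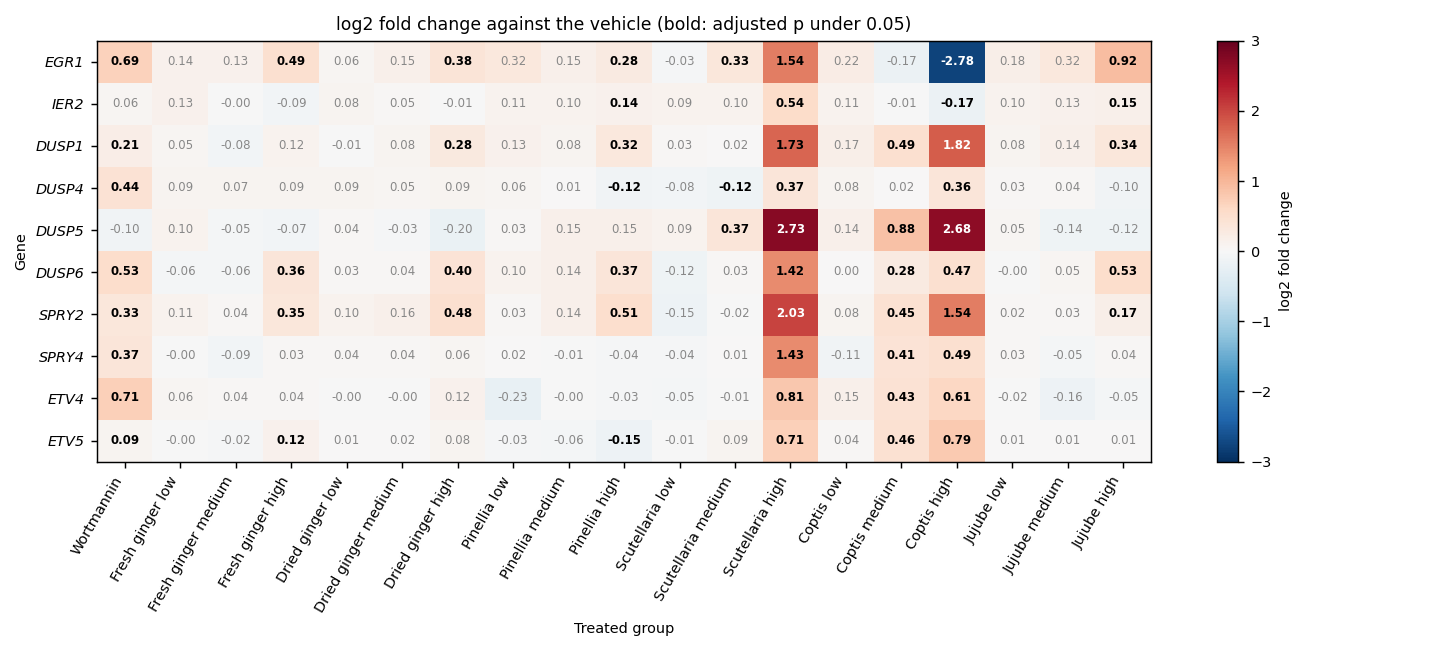
The heat map gives the log2 fold change against the vehicle of the 10 genes (rows) in 19 treated groups (columns), red for higher and blue for lower, with called values in bold. The columns of high-dose Scutellaria and Coptis stand out, EGR1 being the cell with the lowest value, -2.78, and DUSP5 the one with the highest, 2.73.

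EGR1 (ENSG00000120738, chromosome 5, 138465490 to 138469315 on GRCh38), a zinc finger transcription factor that serum and stress induce within minutes, had the widest range of the 10, 20.0-fold between its highest and lowest group. In the vehicle its level was 18.3, 18.1 and 18.5 CPM in the 3 libraries. High-dose Scutellaria gave 51.1, 56.8 and 51.7 CPM, and high-dose Coptis gave 2.55, 2.64 and 2.80 CPM. All Scutellaria libraries lay above and all Coptis libraries below every other library, with no overlap. The log2 fold change was 1.54 ± 0.08 (SE; adjusted p = 2e-23) for Scutellaria and -2.78 ± 0.14 (adjusted p = 1.4e-24) for Coptis, where 54 to 63 counts a library were left. In bulk RNA, fewer cells with the transcript and less of it per cell cannot be told apart. Along the Coptis doses the mean was 21.4 ± 1.39 CPM (SD, n = 3) at the low, 16.3 ± 0.79 at the medium and 2.66 ± 0.13 at the high dose.

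Jujube at the high dose gave the next highest EGR1, with 29.5, 37.0 and 37.5 CPM. Replicate 1 was lower than the other two, and all 3 lay above the vehicle (0.92 ± 0.08, adjusted p = 5.1e-12). Wortmannin gave 26.9, 32.3 and 29.4 CPM, a rise of 0.69 ± 0.09 (adjusted p = 3.8e-09) with no overlap with the vehicle. EGR1 also rose under high-dose fresh ginger (25.6 ± 0.68 CPM, SD, 0.49 ± 0.09) and dried ginger (23.9 ± 3.47 CPM, 0.38 ± 0.09). In high-dose Pinellia it was 22.2 ± 2.76 CPM, called higher than the vehicle by 0.28 ± 0.09 (adjusted p = 0.024). Low-dose Pinellia stood at 22.8 ± 0.20 CPM, so the high dose was not above the low dose of the same extract. The vehicle ranked 17 of 20 in the order of EGR1 means, and 16 of the 19 pairs of neighbours in that order had overlapping libraries.

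IER2 (ENSG00000160888, chromosome 19, 13150415 to 13154908), a nuclear protein of the same early wave, varied little. Its vehicle libraries had 39.96, 41.9 and 43.6 CPM, those of high-dose Scutellaria 62.4, 62.6 and 57.6 CPM and those of high-dose Coptis 38.3, 36.9 and 36.6 CPM. The Scutellaria libraries were above all others, and the Coptis libraries were below the vehicle without overlap. IER2 rose by 0.54 ± 0.05 (adjusted p = 1.5e-14) under Scutellaria and fell by 0.17 ± 0.05 (adjusted p = 0.0032) under Coptis, or by 0.48 with libraries scaled by their totals. The other calls were small: 0.14 ± 0.05 in high-dose Pinellia and 0.15 ± 0.05 in high-dose jujube. In those extracts the low doses, at 45.2 ± 1.62 and 44.8 ± 0.75 CPM (SD), lay close to the high doses at 46.1 ± 2.52 and 46.4 ± 1.09 CPM.

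**Figure D2:**
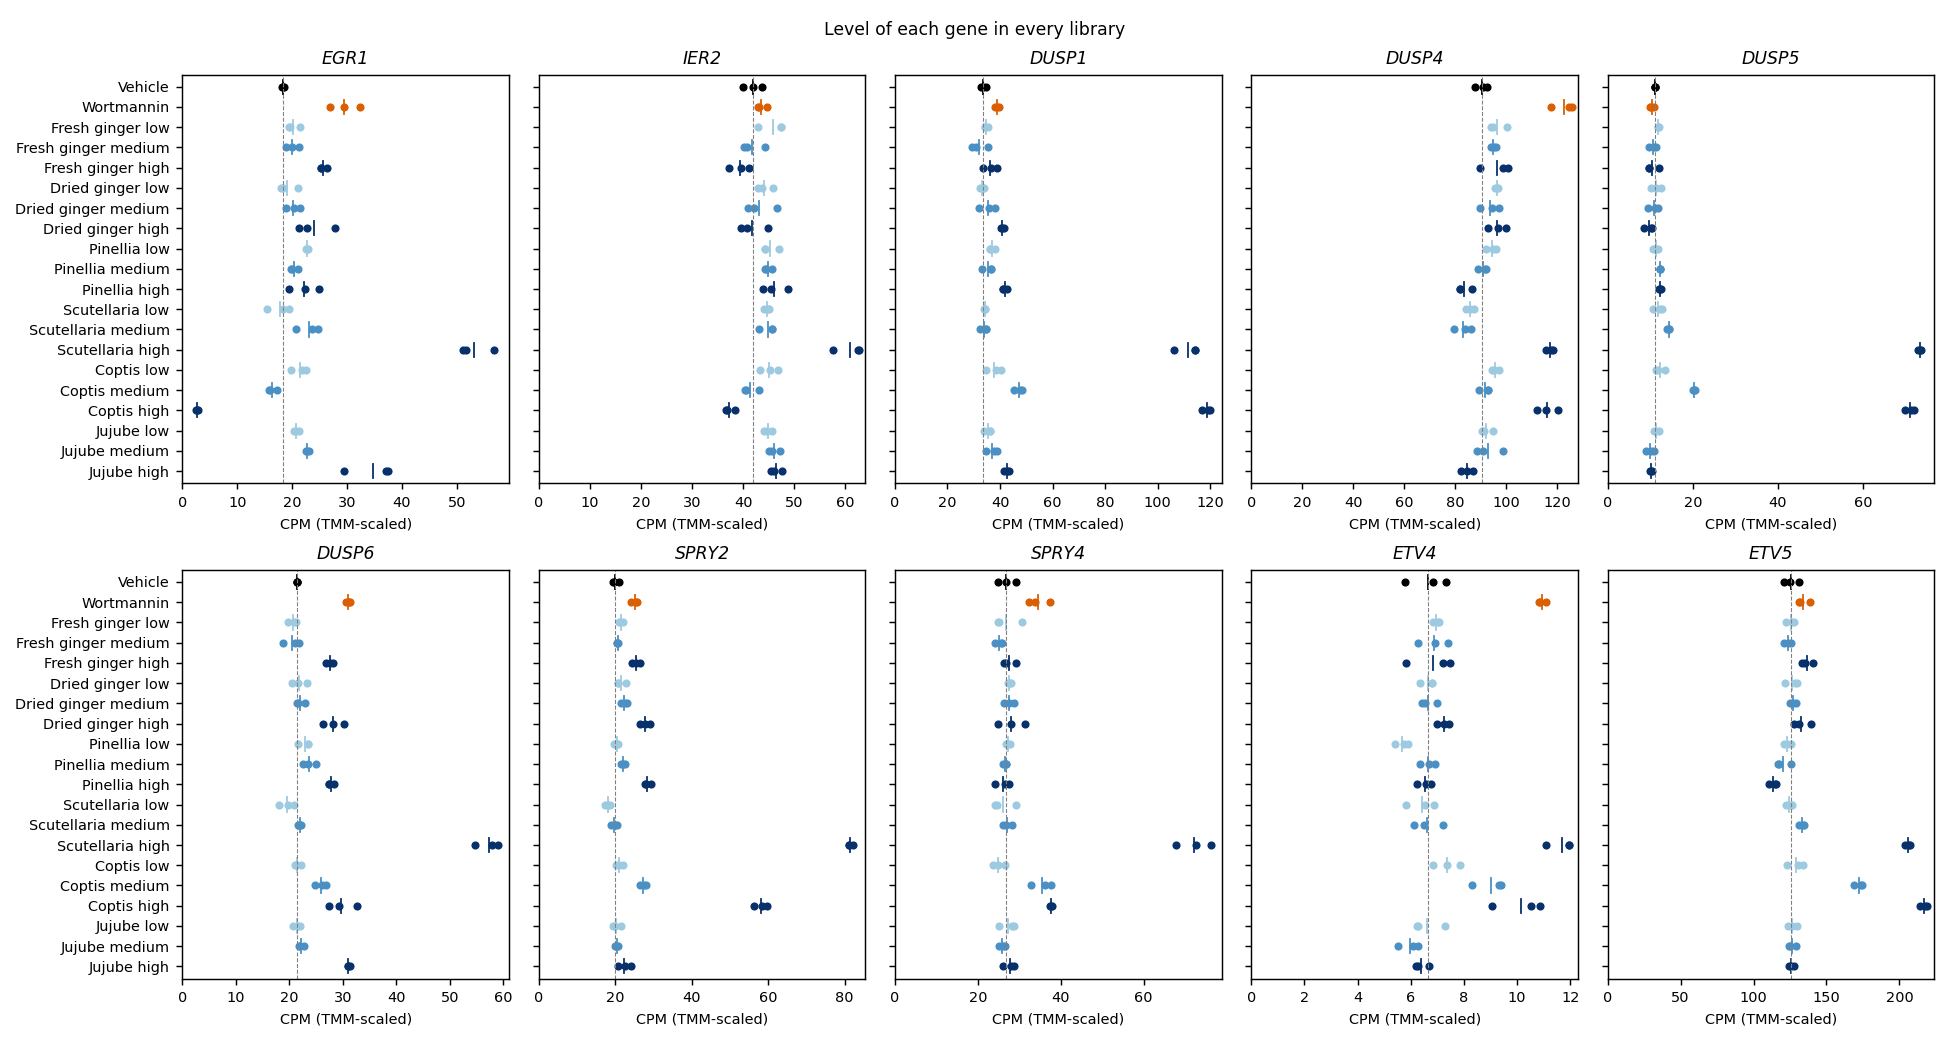
Each panel shows 1 gene, with its level in CPM on the horizontal axis and the 20 groups on the vertical axis. Points are single libraries, short bars are means of 3, the dashed line is the vehicle mean, and darker blue is a higher dose. High-dose Scutellaria has the highest mean or the next one in every panel, wortmannin leads in DUSP4 at 122.5 CPM, and high-dose Coptis lies at the far left for EGR1 at 2.66 CPM.

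Among the phosphatases DUSP1 and DUSP5 had the largest rises. DUSP1 (ENSG00000120129, chromosome 5, 172768090 to 172771195), a nuclear phosphatase that acts on p38 and JNK as well as ERK, measured 34.5, 32.6 and 33.5 CPM in the vehicle. It reached 114.3, 106.1 and 114.3 CPM under high-dose Scutellaria and 119.1, 116.9 and 119.9 CPM under high-dose Coptis. The lowest of these 6 libraries was above every library of the remaining groups. The rises were 1.73 ± 0.05 (adjusted p = 2.1e-34) and 1.82 ± 0.05 (adjusted p = 8.9e-36). Medium-dose Coptis came next at 47.1 ± 1.45 CPM (0.49 ± 0.05). Smaller rises were called under high-dose jujube (0.34 ± 0.06), Pinellia (0.32 ± 0.06) and dried ginger (0.28 ± 0.06) and under wortmannin (0.21 ± 0.06), whereas fresh ginger at the high dose had 0.12 ± 0.06 and was not called.

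DUSP5 (ENSG00000138166, chromosome 10, 110497838 to 110511544), an inducible nuclear phosphatase selective for ERK, rose most of the 10 genes. The vehicle had 11.05, 11.04 and 11.12 CPM, high-dose Scutellaria 73.4, 73.0 and 73.5 CPM and high-dose Coptis 71.4, 71.9 and 69.8 CPM. Libraries within each of these groups were nearly equal, and the treated ones did not overlap with the vehicle. The change was 6.62-fold, or 2.73 ± 0.06 on the log2 scale (adjusted p = 4.6e-40), for Scutellaria and 2.68 ± 0.06 (adjusted p = 5.6e-40) for Coptis. DUSP5 was also the member with the largest rise at the medium doses of these extracts, though not at those of the gingers and jujube, where no member was called. It stood at 20.3 ± 0.28 CPM under medium-dose Coptis (0.88 ± 0.07, adjusted p = 2.3e-15) and at 14.3 ± 0.33 CPM under medium-dose Scutellaria (0.37 ± 0.08, adjusted p = 0.00053). Wortmannin, both gingers, Pinellia and jujube gave no call against the vehicle, with high-dose means between 9.64 and 12.3 CPM and 10.4 CPM under wortmannin.

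DUSP6 (ENSG00000139318, chromosome 12, 89347232 to 89353271), the cytoplasmic phosphatase that takes ERK as its substrate, was called higher in every high dose and under wortmannin. Its vehicle libraries had 21.4, 21.4 and 21.4 CPM, and those of high-dose Scutellaria 59.0, 57.9 and 54.8 CPM (1.42 ± 0.05, adjusted p = 8.6e-31). No other group came near this level. The next means were 31.0 CPM under jujube (0.53 ± 0.05) and under wortmannin (0.53 ± 0.05) and 29.7 ± 2.66 CPM under high-dose Coptis (0.47 ± 0.06). Dried ginger (0.40 ± 0.05), Pinellia (0.37 ± 0.06) and fresh ginger (0.36 ± 0.06) followed at their high doses. In Coptis the rise of DUSP6 was a small one beside those of DUSP1 and DUSP5.

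DUSP4 (ENSG00000120875, chromosome 8, 29333064 to 29350668), a nuclear phosphatase acting on ERK and JNK, was the only member with its highest mean under wortmannin. Wortmannin gave 124.6, 117.3 and 125.8 CPM against 87.8, 90.9 and 92.4 CPM in the vehicle. These groups did not overlap, and the rise was 0.44 ± 0.04 (adjusted p = 2.9e-14). High-dose Scutellaria (117.0 ± 1.38 CPM, 0.37 ± 0.04) and high-dose Coptis (115.9 ± 4.07 CPM, 0.36 ± 0.04) were close to it. The Coptis rise depended on scaling: with libraries scaled by their totals it was 0.04 and was not called. DUSP4 was called lower in high-dose Pinellia (83.4 ± 2.83 CPM, -0.12 ± 0.04) and medium-dose Scutellaria (83.1 ± 3.35 CPM, -0.12 ± 0.04).

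The Sprouty genes differed in how widely they rose. SPRY2 (ENSG00000136158, chromosome 13, 80335976 to 80340951), an inhibitor of receptor tyrosine kinase signalling, had 19.8, 19.4 and 20.9 CPM in the vehicle, 82.2, 81.2 and 81.2 CPM under high-dose Scutellaria and 59.7, 56.4 and 58.4 CPM under high-dose Coptis. Scutellaria was above Coptis, and both were above every other library. SPRY2 rose by 2.03 ± 0.04 (adjusted p = 3.6e-41) and 1.54 ± 0.04 (adjusted p = 2.3e-35). Like DUSP6 it was called higher in every high dose and under wortmannin, although DESeq2 did not call it in jujube. Pinellia (28.4 ± 0.82 CPM, 0.51 ± 0.05), dried ginger (27.9 ± 1.32 CPM, 0.48 ± 0.05), fresh ginger (25.5 ± 0.99 CPM, 0.35 ± 0.05) and wortmannin (25.2 ± 0.79 CPM, 0.33 ± 0.05) were well apart from the vehicle. Jujube, at 22.6, 24.1 and 20.7 CPM, overlapped with it (0.17 ± 0.05, adjusted p = 0.013, and 0.056 by DESeq2).

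SPRY4 (ENSG00000187678, chromosome 5, 142310427 to 142326455), a related inhibitor, was called in only 4 of the 19 groups. The vehicle had 26.7, 24.8 and 29.1 CPM and high-dose Scutellaria 72.6, 76.2 and 67.8 CPM, without overlap (1.43 ± 0.07, adjusted p = 2.8e-25). High-dose Coptis had 37.6 ± 0.30 CPM (0.49 ± 0.07), medium-dose Coptis 35.6 ± 2.39 CPM (0.41 ± 0.07) and wortmannin 34.5 ± 2.59 CPM (0.37 ± 0.07). Between both gingers, Pinellia and jujube the high-dose means were within 26.1 and 27.99 CPM and were not called.

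ETV4 (ENSG00000175832, chromosome 17, 43527844 to 43579620), an ETS factor, had the lowest vehicle level per length of the 10. Its vehicle libraries had 5.78, 6.85 and 7.32 CPM, those of high-dose Scutellaria 11.1, 12.0 and 12.0 CPM and those of wortmannin 11.1, 10.8 and 10.9 CPM. Both treated groups lay above the vehicle without overlap, and the libraries of Scutellaria and wortmannin were close to each other. The rises were 0.81 ± 0.08 (adjusted p = 5.1e-13) and 0.71 ± 0.08 (adjusted p = 2.2e-10). High-dose Coptis (10.1 ± 0.97 CPM, 0.61 ± 0.08) and medium-dose Coptis (9.01 ± 0.62 CPM, 0.43 ± 0.08) made up the remaining calls.

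ETV5 (ENSG00000244405, chromosome 3, 186046308 to 186110318), its close relative, was the member highest per length. The vehicle had 125.1, 120.6 and 131.1 CPM, high-dose Coptis 218.6, 214.0 and 217.7 CPM, high-dose Scutellaria 206.5, 207.5 and 203.9 CPM and medium-dose Coptis 173.8, 174.5 and 168.8 CPM. These 4 groups did not overlap with one another. ETV5 rose by 0.79 ± 0.03 (adjusted p = 3.5e-29), 0.71 ± 0.03 (adjusted p = 6.3e-27) and 0.46 ± 0.03 (adjusted p = 5.5e-18). It was lower in high-dose Pinellia (113.5 ± 2.57 CPM, -0.15 ± 0.03, adjusted p = 0.00069). Wortmannin raised ETV5 less than ETV4, to 134.0 ± 4.01 CPM (0.09 ± 0.03, adjusted p = 0.017). Per kilobase of exon, the vehicle levels were 21.6 CPM for ETV5, 16.6 for DUSP1, 13.6 for IER2, 12.5 for DUSP4, 6.60 for SPRY2, 5.83 for EGR1, 4.63 for DUSP6, 4.23 for DUSP5, 4.09 for SPRY4 and 1.84 for ETV4. The order depends in part on the length used. Per kilobase of the longest transcript, DUSP4 (16.3) was above IER2 (14.3), and SPRY4 (5.02) was above DUSP6 (4.87) and DUSP5 (4.33).

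Several small calls against the vehicle depended on single libraries. For ETV5 the call under wortmannin was lost without vehicle replicate 2 or wortmannin replicate 2 (0.06 to 0.07), and that under high-dose fresh ginger (0.12 ± 0.03) without vehicle replicate 2 or fresh ginger replicate 2 (0.07 to 0.08). In high-dose Pinellia EGR1 lost its call without vehicle replicate 1 or 2 or Pinellia replicate 2 or 3 (0.19 to 0.28), IER2 without vehicle replicate 1 or 2 or Pinellia replicate 1 or 3 (0.10 to 0.15) and DUSP4 without vehicle replicate 2 or 3 or Pinellia replicate 1 or 2 (-0.12 to -0.10). Medium-dose Scutellaria called EGR1 higher by 0.33 ± 0.09, which was lost without vehicle replicate 2 or Scutellaria replicate 2 or 3 (0.28 to 0.31), and its DUSP4 call was lost without vehicle replicate 2 or 3 or Scutellaria replicate 1 or 2 (-0.13 to -0.09). In high-dose jujube the calls of IER2 (0.12 to 0.15) and SPRY2 (0.11 to 0.16) were lost without vehicle replicate 1 or 2 or jujube replicate 1 or 2. Other settings ended some of these calls as well. IER2 in high-dose Pinellia was not called by DESeq2 (adjusted p = 0.057), with no filter, with library totals or with only the groups compared. SPRY2 in high-dose jujube was not called by DESeq2, with no filter or with only the groups compared. DUSP4 lost its call in high-dose Pinellia with only the groups compared and in medium-dose Scutellaria with no filter or library totals, and ETV5 under wortmannin with no filter.

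High and low doses of 1 extract share the first element of the description code, which makes their comparison free of that difference. All 10 genes were higher at the high dose of Scutellaria (58.1% of all genes called, 29.2% higher). In Coptis 8 were higher and EGR1 and IER2 lower (75.8%, 36.9% higher and 38.9% lower). Fresh ginger (23.3%, 11.4% higher and 11.9% lower), dried ginger (13.2%, 6.07% and 7.13%) and jujube (15.2%, 7.4% and 7.85%) each had 4 higher and 1 lower. Pinellia had 3 higher and 2 lower (14.5%, 7.65% and 6.86%). DUSP6 and SPRY2 were higher at the high dose in all 6 extracts, SPRY2 in jujube by edgeR but not by DESeq2 (adjusted p = 0.11). For DUSP6 the log2 fold change was 1.54 ± 0.05 in Scutellaria, 0.54 ± 0.05 in jujube, 0.47 ± 0.05 in Coptis, 0.42 ± 0.05 in fresh ginger, 0.37 ± 0.05 in dried ginger and 0.27 ± 0.05 in Pinellia. SPRY2 had 2.18 ± 0.04 in Scutellaria, 1.46 ± 0.04 in Coptis, 0.48 ± 0.05 in Pinellia, 0.38 ± 0.05 in dried ginger, 0.24 ± 0.05 in fresh ginger and 0.14 ± 0.05 in jujube. The last of these had overlapping libraries and lost its call without jujube high-dose replicate 1 or 2 or low-dose replicate 2 or 3 (0.09 to 0.13), and also with no filter or with only the groups compared.

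EGR1 rose from low to high dose in fresh ginger (0.35 ± 0.08), dried ginger (0.32 ± 0.09), jujube (0.74 ± 0.08) and Scutellaria (1.57 ± 0.08), fell in Coptis (-3.001 ± 0.13) and was not called in Pinellia. Without high-dose replicate 3 or low-dose replicate 3 the dried ginger call was lost (0.19 to 0.27). Members lower at the high dose were IER2 in fresh ginger (-0.22 ± 0.05) and Coptis (-0.28 ± 0.05), DUSP5 in dried ginger (-0.24 ± 0.08), DUSP4 in Pinellia (-0.18 ± 0.04) and jujube (-0.12 ± 0.04) and ETV5 in Pinellia (-0.12 ± 0.03). The DUSP5 libraries of dried ginger overlapped, and that call was lost without high-dose replicate 2 or low-dose replicate 1 or 2 (-0.24 to -0.16), with library totals and with only the groups compared. The DUSP4 call in jujube was lost without high-dose replicate 1 or 3 or low-dose replicate 2 (-0.12 to -0.10) and with library totals, and the ETV5 call in Pinellia without high-dose replicate 1 (-0.10) and with only the groups compared. The rise of DUSP1 in Pinellia (0.18 ± 0.05) was lost without high-dose replicate 1 or low-dose replicate 1 or 2 (0.17), and that of ETV5 in fresh ginger (0.12 ± 0.03) without high-dose replicate 2 (0.09). The count for Pinellia became 3 without high-dose replicate 1, and that for jujube became 3 without high-dose replicate 1 or low-dose replicate 2.

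Medium-dose Coptis was also set against low-dose Coptis, a comparison added after the values were seen. It called 9 of the 10 genes, where 36.4% of all genes were called. The 7 genes called against the vehicle were higher again, from 0.27 ± 0.05 for DUSP6 to 0.74 ± 0.07 for DUSP5. EGR1 (-0.39 ± 0.09, adjusted p = 0.00038) and IER2 (-0.12 ± 0.05, adjusted p = 0.037) were lower, and DUSP4 had -0.06 ± 0.04 and was not called.

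Scutellaria and Coptis were the extracts with the largest changes, and their effects of dose were compared directly by an interaction test that was added after the values were seen. Of the 10 genes 7 differed, where 64.2% of all genes did. EGR1 rose by 1.57 in Scutellaria and fell by 3.001 in Coptis, a difference of 4.57 ± 0.16 (SE; adjusted p = 2.9e-31), and IER2 differed by 0.72 ± 0.07 with opposite signs. DUSP6 (1.06 ± 0.07), SPRY4 (0.87 ± 0.10), SPRY2 (0.72 ± 0.06), ETV4 (0.40 ± 0.11) and DUSP4 (0.17 ± 0.05) rose in both and more in Scutellaria. For DUSP1 the difference was 0.05 ± 0.07, for DUSP5 0.09 ± 0.09 and for ETV5 -0.02 ± 0.04, none of which was called. The doses, 410 and 16.4 µg/mL in one case and 20 and 0.8 µg/mL in the other, are not the same amounts.

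**Figure D3:**
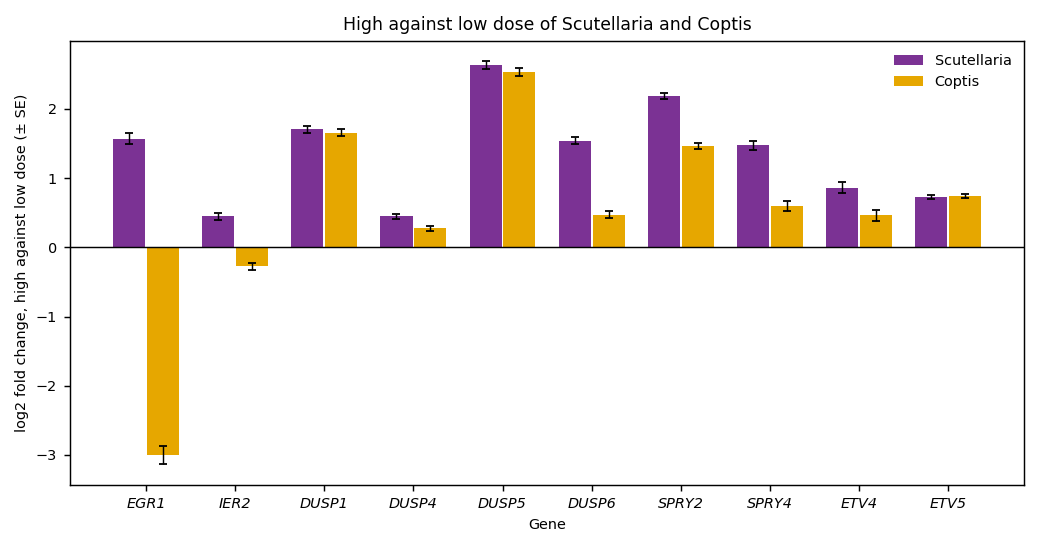
Bars give the log2 fold change of the high against the low dose, with the SE, for Scutellaria (purple) and Coptis (yellow). DUSP1, DUSP5 and ETV5 have bars of nearly equal height, the bars of DUSP6, SPRY2 and SPRY4 are taller for Scutellaria, and those of EGR1 and IER2 point in opposite directions.

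The Coptis values depend on scaling because its libraries had low TMM factors. When libraries were scaled by their totals alone, an alternative added after the values were seen, the median of all genes moved by -0.32 in high-dose Coptis, by -0.14 in medium-dose Coptis and by -0.30 in the high against the low dose. Relative to the vehicle DUSP5 (2.37), DUSP1 (1.51), SPRY2 (1.22) and ETV5 (0.47) were above, and EGR1 (-3.10) and IER2 (-0.48) below. DUSP4 was at 0.04 (adjusted p = 0.34) and lost its call, and DUSP6 (0.16), SPRY4 (0.17) and ETV4 (0.29) kept a smaller one. Against the low dose DUSP4 turned to -0.03 (adjusted p = 0.54), and ETV4, at 0.16, lost its call (adjusted p = 0.069). IER2 (-0.58), DUSP6 (0.17), SPRY4 (0.29) and ETV5 (0.44) kept theirs with values changed by over 1.5 times. In medium-dose Coptis DUSP4 turned to -0.12 and was called lower, as were EGR1 (-0.31) and IER2 (-0.15), whereas the 7 rises were kept, from 0.14 for DUSP6 to 0.74 for DUSP5. With this scaling all 10 differences between Scutellaria and Coptis were called, DUSP1 (0.37), DUSP5 (0.41) and ETV5 (0.29) in addition, and those of DUSP4 (0.49) and ETV4 (0.72) were over 1.5 times larger.

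Between dried and fresh ginger, used at the same doses, edgeR called 0 of the 10 genes at the high (1.42% of all genes called), medium (0.0683%) and low dose (0.279%), as did DESeq2. At an unadjusted p under 0.05 there were 2 (DUSP1 and SPRY2), 2 (the same genes) and 0. By that limit edgeR gave 1798, 950 and 1899 of all 17569 genes. At the high dose the difference of dried from fresh had 95% intervals of -0.27 to 0.06 for EGR1, -0.07 to 0.14 for DUSP6 and 0.04 to 0.22 for SPRY2, the last with an adjusted p of 0.21. DUSP1 had the largest difference, 0.17 ± 0.05 (adjusted p = 0.13), which became 0.23 and was called without fresh ginger high-dose replicate 2. A difference between the gingers in the effect of dose was called in 0 of the 10 genes by edgeR, where 0.814% of all genes were called, and 1, DUSP1, had an unadjusted p under 0.05. The DUSP1 rises with dose were 0.29 in dried and 0.07 in fresh ginger, a difference of 0.23 ± 0.08 (adjusted p = 0.16).

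Other genes of the pathway were counted in 4 lists, written with earlier results of these data known. Their shares beside those of all genes therefore describe these lists and do not test the pathway. Of 12 other immediate early genes 11 were tested (not EGR4), of 12 other feedback inhibitors 12, of 13 other ERK output genes 12 (not AREG) and of 22 components of the RAS-ERK cascade 22. High-dose Scutellaria called 7 immediate early genes higher and 1 lower (median 0.63), 9 output genes higher and 3 lower (median 1.10), 5 feedback genes higher and 4 lower (median 0.22) and 7 cascade genes higher and 5 lower (median 0.05). All genes tested had a median of 0.01, with 30.3% higher and 28.5% lower. Against that, 63.6% of the immediate early and 75% of the output genes were higher, whereas the cascade (31.8% higher, 22.7% lower) was near the share of all genes and the feedback genes (41.7%, 33.3%) not far from it. Among those that rose were the cytokine LIF (26.1 ± 2.63 to 179.2 ± 7.00 CPM, 2.78 ± 0.07), IER3, an early gene linked to cell survival (2.64 ± 0.14), FOSB, an AP-1 subunit (2.35 ± 0.17), DUSP8, a phosphatase of JNK and p38 (2.15 ± 0.10), the transcription factor MYC (2.05 ± 0.05) and PHLDA1, an ERK-induced gene (1.92 ± 0.04). DUSP2 fell from 1.05 ± 0.43 to 0.23 ± 0.18 CPM (-2.28 ± 0.36) and the kinase gene RPS6KA1 fell (-0.38 ± 0.05), whereas BRAF (0.38 ± 0.04) and RASA1, a brake on RAS (0.51 ± 0.03), rose.

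Under high-dose Coptis the lists had genes called in both directions, as had all genes tested (37.2% higher, 37.9% lower). Of the immediate early genes 6 were higher and 4 lower (median 0.18), of the feedback genes 5 and 5 (0.09), of the output genes 5 and 6 (-0.12) and of the cascade 14 and 5 (0.27), against a median of -0.03 for all genes. The feedback genes, with 41.7% in each direction, were near the share of all genes, and the cascade, with 63.6% higher and 22.7% lower, was farthest from it. Scaling by library totals moves the median of all genes by -0.32 here, a size that would take the medians of 0.18, 0.09 and 0.27 below 0. EGR3, a paralog of EGR1, fell from 7.65 ± 0.89 to 0.80 ± 0.07 CPM (-3.25 ± 0.13, adjusted p = 4.1e-29), and FOS, an AP-1 subunit, fell by 2.42 ± 0.27 from 1.63 ± 0.30 CPM. SPRY3 fell as well (-2.47 ± 0.22), and so did ETV1, which belongs to the same ETS group as ETV4 and ETV5 (75.2 ± 2.32 to 28.3 ± 0.74 CPM, -1.41 ± 0.04). EGR2, another paralog, rose by 2.64 ± 0.38 but only to 1.75 ± 0.30 CPM. DUSP10, a phosphatase of JNK and p38 (13.8 ± 1.42 to 90.3 ± 7.92 CPM, 2.703 ± 0.06), MYC (2.12 ± 0.05), PHLDA1 (1.95 ± 0.04), and SRF (1.69 ± 0.04) and ELK1 (1.04 ± 0.03), which act together at promoters with CArG boxes, rose. The exchange factor SOS1 fell (-1.10 ± 0.05).

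Wortmannin raised 5 immediate early genes and lowered 1, raised 5 feedback genes and lowered 1, and split the output genes 3 and 3 and the cascade genes 3 and 5. The medians were 0.18, 0.13, 0.05 and -0.05. Of all genes 17.3% were higher and 19.2% lower, so the cascade, with 36.4% called against 36.5%, was at the background, and the immediate early (45.5%) and feedback genes (41.7%) had more called higher. ETV1 was at 128.6 ± 0.68 against 75.2 ± 2.32 CPM (0.78 ± 0.03), so it rose with ETV4, and FOS (0.71 ± 0.17), EGR3 (0.56 ± 0.08) and SPRY3 (0.46 ± 0.14) rose too. HBEGF, a ligand of the EGF receptor (-0.44 ± 0.05), and FOSL1, an AP-1 subunit (-0.35 ± 0.06), fell. In high-dose Pinellia, where 9.3% of all genes were higher and 8.73% lower, the output genes had 7 higher and 3 lower (median 0.29), led by LIF (1.88 ± 0.07), FOSL1 (0.63 ± 0.06) and PHLDA1 (0.60 ± 0.04). Its immediate early genes had 3 higher and 1 lower, with IER3 at 2.50 ± 0.14 and EGR3 at -0.68 ± 0.09.

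The gingers and jujube had shares of all genes called of 19.3% (fresh), 17% (dried) and 17.3%. Fresh ginger had 1 immediate early gene higher and 1 lower, 2 and 4 output genes, 0 and 1 feedback genes and 3 and 2 cascade genes. Dried ginger had 2 and 2, 3 and 4, 1 and 1, and 1 and 0 in the same order. EPHA4, an ephrin receptor, was lower under fresh (-0.58 ± 0.05) and dried ginger (-0.67 ± 0.05) and jujube (-0.52 ± 0.05), and DUSP10 was lower under the same 3 extracts (-0.34 ± 0.08, -0.25 ± 0.07 and -0.45 ± 0.08). IER3 was higher under fresh (0.59 ± 0.17) and dried ginger (0.90 ± 0.16), at 2.27 ± 0.13 and 2.82 ± 0.11 CPM against 1.52 ± 0.22 CPM in the vehicle. Of the immediate early genes, KLF10 was lower under fresh ginger (-0.23 ± 0.04) and EGR3 under dried ginger (-0.37 ± 0.08). Fresh ginger also lowered the output genes HBEGF (-0.41 ± 0.05) and EPHA2 (-0.37 ± 0.03). Dried ginger also raised LIF (0.56 ± 0.08) and PHLDA1 (0.39 ± 0.04), and jujube raised DUSP2 (1.24 ± 0.23) and PHLDA1 (0.30 ± 0.04). DUSP2 was low in both groups, at 1.05 ± 0.43 CPM in the vehicle and 2.51 ± 0.07 CPM under jujube. The output gene CCND1 was lower under jujube (167.0 ± 8.58 to 127.8 ± 2.28 CPM, -0.38 ± 0.03). Jujube had 5 immediate early genes higher and 0 lower (median 0.24), among them IER3 (0.90 ± 0.16), FOS (0.51 ± 0.17) and JUNB (0.29 ± 0.06), with 3 and 2 output genes, 2 and 3 feedback genes and 5 and 0 cascade genes.

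**Figure D4:**
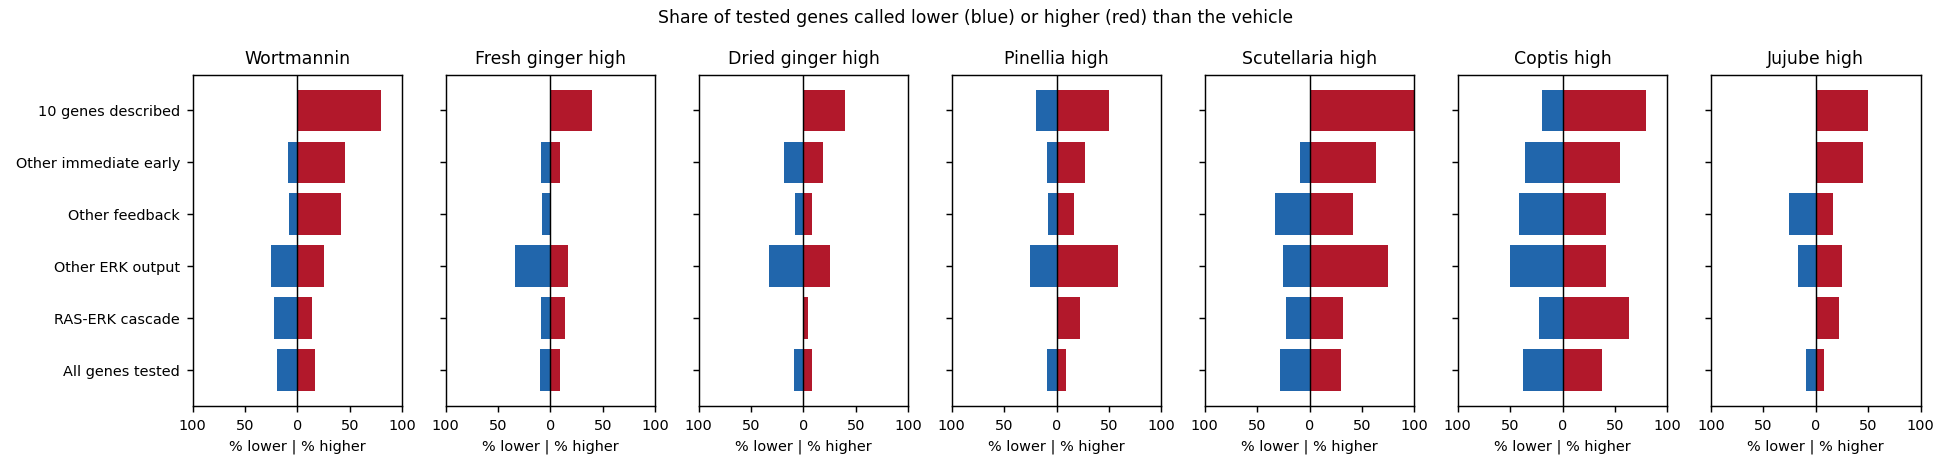
For wortmannin and each high dose, bars give the share in percent of the tested genes of a list called lower (blue, to the left) or higher (red, to the right) than the vehicle. The bottom bar is all genes tested. All 10 genes described are called higher under Scutellaria, and the cascade genes come nearest to the bar of all genes under wortmannin and Scutellaria.

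Over the 20 group means of log2 CPM the 10 genes moved together only in part. Pearson's r over the 45 pairs ran from -0.37 to 0.96 with a median of 0.67, and 20 pairs were over 0.7. The highest was between DUSP1 and SPRY2 (0.96), and all 6 negative values involved EGR1, the lowest with ETV5. The points share the cell line and, across doses, the extract, and without high-dose Scutellaria and Coptis the range over 18 groups was -0.53 to 0.80 with a median of 0.27. There 12 pairs were negative, and not all involved EGR1. EGR1 turned positive with DUSP1 (0.28), DUSP4 (0.23), SPRY2 (0.23) and ETV4 (0.10) and stayed negative with DUSP5 (-0.53) and ETV5 (-0.19). Outside the 10 genes, the 3 with the pattern most like DUSP5 were MYC (0.99), RND3 (0.99) and TMC7 (0.98). For EGR1 they were LTB4R (0.98), WDFY2 (0.97) and LRP8 (0.97), for DUSP1 BACH1, USP53 and PHLDA1 (each 0.98), for SPRY2 PHLDA1 (0.98), E2F7 (0.97) and SUCO (0.97), and for ETV5 CHD2 (0.99), GCC1 (0.98) and CTH (0.98). SPRY4 was most like KDSR (0.98), DUSP6 like GPATCH2L (0.95), ETV4 like PGRMC2 (0.94), and IER2 and DUSP4 like SNAPC4 and TP53INP1 (each 0.91). Without high-dose Scutellaria and Coptis, over 18 groups, r of the 30 genes ranked in the first 3 fell from between 0.88 and 0.99 to between 0.46 and 0.95, with a median of 0.82. It was 0.89 for MYC with DUSP5, 0.95 for CHD2 with ETV5 and 0.77 for LTB4R with EGR1, and none of the 30 was still in the first 3.

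Overlapping genes could share reads with 6 of the members. The labels call the sequencing directional, but no source used here gives the strand setting of the counting, on which sharing between strands depends. Genes on the same strand could share reads under any setting. Antisense and small RNA genes at IER2, DUSP1, DUSP6, SPRY4 and ETV5 were at most 0.794 CPM in any library. ETV4 overlaps DHX8 on the other strand, which had 71.5 CPM in the vehicle and 0.33 on the log2 scale under high-dose Coptis, and ETV5 overlaps DGKG on the same strand, with 11.9 CPM in the vehicle and -2.10 under high-dose Coptis. Their part in the values of ETV4 and ETV5 was not tested.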

How the data were processed

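RNA of 60 libraries was measured by directional sequencing of 100 bp pairs, per the labels. STAR 2.7.3a, RSEM 1.3.3, Trim Galore 0.6.5 and FastQC 0.11.9 are named in the submitters' processing notes with the build GRCh38, without parameters, annotation or strand setting. The authors deposited RSEM expected counts, not scaled for depth, for 60675 genes. These were rounded to whole counts, which changed a total by at most 0.0002%. Totals were 20.2 to 32.8 M, so that 3 counts, the limit a count of 0 allows, are 0.0915 to 0.149 CPM (counting error only).

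Genes were kept by filterByExpr, which left 17569 of 37383 with any count. edgeR 4.0.16 in R 4.3.3 fitted TMM-scaled counts with a mean for each group, leaving 40 residual degrees of freedom, and the quasi-likelihood F test, two-sided, was run for 28 comparisons with Benjamini-Hochberg adjustment over all genes of each. CPM values of tested genes use TMM factors, and ± is SD for levels and SE for log2 fold changes. Marker levels are over library totals. Lengths and coordinates are from GENCODE v29 and promoters from RefSeq. All 10 members were named in every comparison; likeness took the 3 genes with the highest r and an average log2 CPM of at least 1, and lists named at most the 3 called genes with the largest change and no overlap. The members and lists were chosen with earlier results of these data known. Replicate numbers did not pair libraries, and of 60 pairs of replicates none was identical. The procedure was tested on simulated counts. Alternatives were DESeq2 1.42.0, RLE factors, library totals, no filter, a replicate block, only the groups compared, and leaving out each library.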

Additional observations from a re-analysis of the deposited data

Results flagged for a closer look

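The effect of dose, high against low, differed between Scutellaria and Coptis in 7 of the 10 genes by an interaction test over all genes, chosen after the values were seen. Of all genes tested 64.2% differed, so this count is near the background. The differences, Scutellaria minus Coptis on the log2 scale, were 4.57 for EGR1, 0.72 for IER2, 0.17 for DUSP4, 1.06 for DUSP6, 0.72 for SPRY2, 0.87 for SPRY4 and 0.40 for ETV4, with SE from 0.05 to 0.16. With libraries scaled by their totals they were 4.89, 1.04, 0.49, 1.38, 1.04, 1.19 and 0.72 in the same order, and all 10 genes were called. EGR1 and IER2 were higher at the high dose in 3 of 3 Scutellaria libraries and lower in 3 of 3 Coptis libraries than in every library of the low dose.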

How the results depend on the processing

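Of 280 member results 98 were called, of which 79 kept their call under every alternative and 19 lost it in at least 1, while 16 uncalled results were called in at least 1. Results that reversed did so under library totals: DUSP4 in medium-dose Coptis (-0.12) and in high against low Coptis (-0.026), and the difference between Scutellaria and Coptis in ETV5 (0.29). Replicate numbers did not pair the libraries: in 0 of 28 comparisons were all 3 correlations over 0.1, and for 26 of 60 libraries the best correlation, out of 3 numbers, was with their own number. The mean correlation between libraries of different groups was 0.003 with the same number and -0.002 with another number. The replicate block called 1 member in low-dose Pinellia and 1 in medium-dose jujube, EGR1 in both, where the reported fit called 0. So did the fit with only the groups compared (1 and 1), and with no filter EGR1 was called in low-dose Pinellia (1), medium-dose jujube (1) and low-dose Coptis (1). Leaving out 1 library gave 4 to 6 members in high-dose Pinellia, 1 to 3 in medium-dose Scutellaria, 3 to 5 in high-dose jujube, 0 to 1 in low-dose fresh ginger, 3 to 5 in high against low Pinellia, 3 to 5 in high against low jujube and 0 to 1 in high-dose dried against fresh ginger. The cause of these changes was not tested. High-dose Scutellaria kept 10 members under every alternative. RLE factors changed no member's call. The interaction tests were not run with DESeq2. Depth limits EGR1 in high-dose Coptis most, at 54 to 63 counts a library.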
